A study of Homo sapiens with 8 samples.

Results

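The 39 genes described here encode the core of the apoptosis machinery: the BCL2 family, 6 caspases, the factors released from mitochondria, the inhibitors of apoptosis, the death receptors with their adaptors, and PARP1. They were taken by gene name from the probe annotation of the arrays, where they account for 39 of 36337 gene names and 63 of 50599 probes. RNA was measured on 8 one-colour 60-mer oligonucleotide arrays, 2 per group, from 2 thyroid cell lines in which the level of the microRNA miR-375 was raised or blocked. Nthy-ori 3-1 (ORI in the labels) is an immortalised, non-tumoral follicular line. It was transfected with a synthetic precursor, premiR-375, or with a control labelled CTL. TT is a line from a medullary thyroid carcinoma, a tumour of the calcitonin-producing C cells. It was transfected with AntagomiR-375, an inhibitor of the microRNA, or with a control labelled CTL. All cells were collected 48 h after transfection. The labels give 5 nM for the precursors and 20 nM for the inhibitors, and the study's methods state higher concentrations. The methods name a control precursor and a control inhibitor among the transfection reagents but only the control precursor for the arrays, and the labels give only CTL, so that the control reagent of the TT arrays is not settled. Each line is 1 cell line grown in its own medium, RPMI for Nthy-ori 3-1 and DMEM/F12 for TT, and each line lay on its own 2 slides. The methods call the replicates of the arrays biological, while the labels do not say whether they came from separate cultures. The p-values rest on the spread between these samples, which the test pools in part over all probes tested. Those between the lines also draw on the spread of the treated arrays.

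Apoptosis runs along 2 routes that meet at the caspases, proteases that dismantle the cell. In the mitochondrial route, BH3-only proteins neutralise the anti-apoptotic BCL2 proteins or act on the effectors BAX and BAK1, which open the outer mitochondrial membrane. Cytochrome c, the product of CYCS, then assembles with APAF1 into the apoptosome, which activates caspase-9. In the other route, ligands bind FAS or the TRAIL receptors at the cell surface, and the adaptor FADD recruits caspase-8, which CFLAR holds in check. The IAP proteins restrain caspases directly or act in the signalling of tumour necrosis factor receptors, and PARP1, a DNA repair enzyme, is a classic substrate of the executioner caspases. Cleavage and activity of these proteins are not seen by an array of RNA.

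The reagents carry or oppose the strand miR-375-3p, which RefSeq places at chr2:219001648-219001669 on the minus strand of GRCh38.p14. Its seed, bases 2 to 8, is in capitals and is shown because it sets which stretches of a target RNA can pair with it:
hsa-miR-375-3p: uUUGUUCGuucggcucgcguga
Searched on the strand printed in the files, the 7 letters that pair with bases 2 to 8 (CGAACAA) stood in 31 of the 50599 array probes and in 0 of the 63 probes of the apoptosis genes. The related form that pairs with bases 2 to 7 and ends in A (GAACAAA) stood in 392 probes, or 0.775%, and in 1 of the 63, the brightest CFLAR probe. A match is a description of letters in a probe, and the probes cover only a small stretch of each RNA.

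On each array, 54.6% to 63.6% of the gene spots were well above background and 0 were saturated. The arrays of the control groups had an RNA integrity number of 9 in Nthy-ori 3-1 and of 8 in TT, and the treated arrays of both lines had 9. SEC23A, a coat protein gene known as a miR-375 target, was read beside the transfections. The study picked it in part by its direction in these transfections, so that it is no independent check of them. Its normalised log2 intensity was 11.04 and 11.35 with CTL and 9.53 and 10.08 with premiR-375 in Nthy-ori 3-1, and 9.55 and 9.68 with CTL and 10.24 and 10.29 with AntagomiR-375 in TT. Each group thus lay apart from its control, lower with the precursor and higher with the inhibitor. Groups lay apart for 37.1% of all genes with premiR-375 and for 44.5% with AntagomiR-375. The C cell markers fitted the line labels, as all 11 on the array were above background on every TT array. On the CTL arrays of Nthy-ori 3-1, 1 of the 11 was above background, RET. On the premiR-375 arrays 7 and 8 were, and CALCA, CHGA, CHGB, SCG2, SCG3 and SYP were above background there and on neither CTL array. The summed intensity of the 11 markers was 182 and 168 on the CTL arrays of Nthy-ori 3-1, 633 and 710 on its premiR-375 arrays, and 521758 to 587209 on the TT arrays. DDC, at 14.59 to 14.92 in TT, was not above background on any Nthy-ori 3-1 array (1.71 to 1.73), nor was CEACAM5. The part of these markers in the differences of the apoptosis genes with premiR-375 was not tested. Of the follicular markers, FOXE1 was above background on all 4 arrays of Nthy-ori 3-1 and on none of TT, PAX8 was at 10.31 to 10.73 in Nthy-ori 3-1 and 4.65 to 5.76 in TT, and TSHR was not above background on any array. TG, the thyroglobulin gene, was brighter in TT (9.13 to 9.20) than in Nthy-ori 3-1 (4.51 to 5.02).

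The first comparison asks what raising miR-375 in follicular cells did to the RNA of the apoptosis genes. None of the 39 passed an adjusted p of 0.05 in limma, and neither did any gene on the array (0% of 20744 genes tested). The smallest adjusted p of any probe was 0.0785, and 15 of the 39 had an unadjusted p under 0.05, beside 26.8% of all genes. By size, 8 of the 39 were higher and 2 were lower by at least 0.6 on the log2 scale, with an average log2 intensity of at least 6 and both replicate pairs in 1 direction, beside 5.29% higher and 6.32% lower of all genes. The 8 higher genes were BMF, CASP9, BAK1, BCL2, APAF1, FAS, BCL2L11 and CASP4, and the 2 lower ones were BIRC3 and CYCS. The median difference of the 39 was 0.18 on the log2 scale, against 0.03 over all genes. The premiR-375 and CTL arrays did not overlap for 20 of the 39, beside 37.1% of all genes, and both pairs had 1 sign for 31, beside 71.2%.

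**Figure D1:**
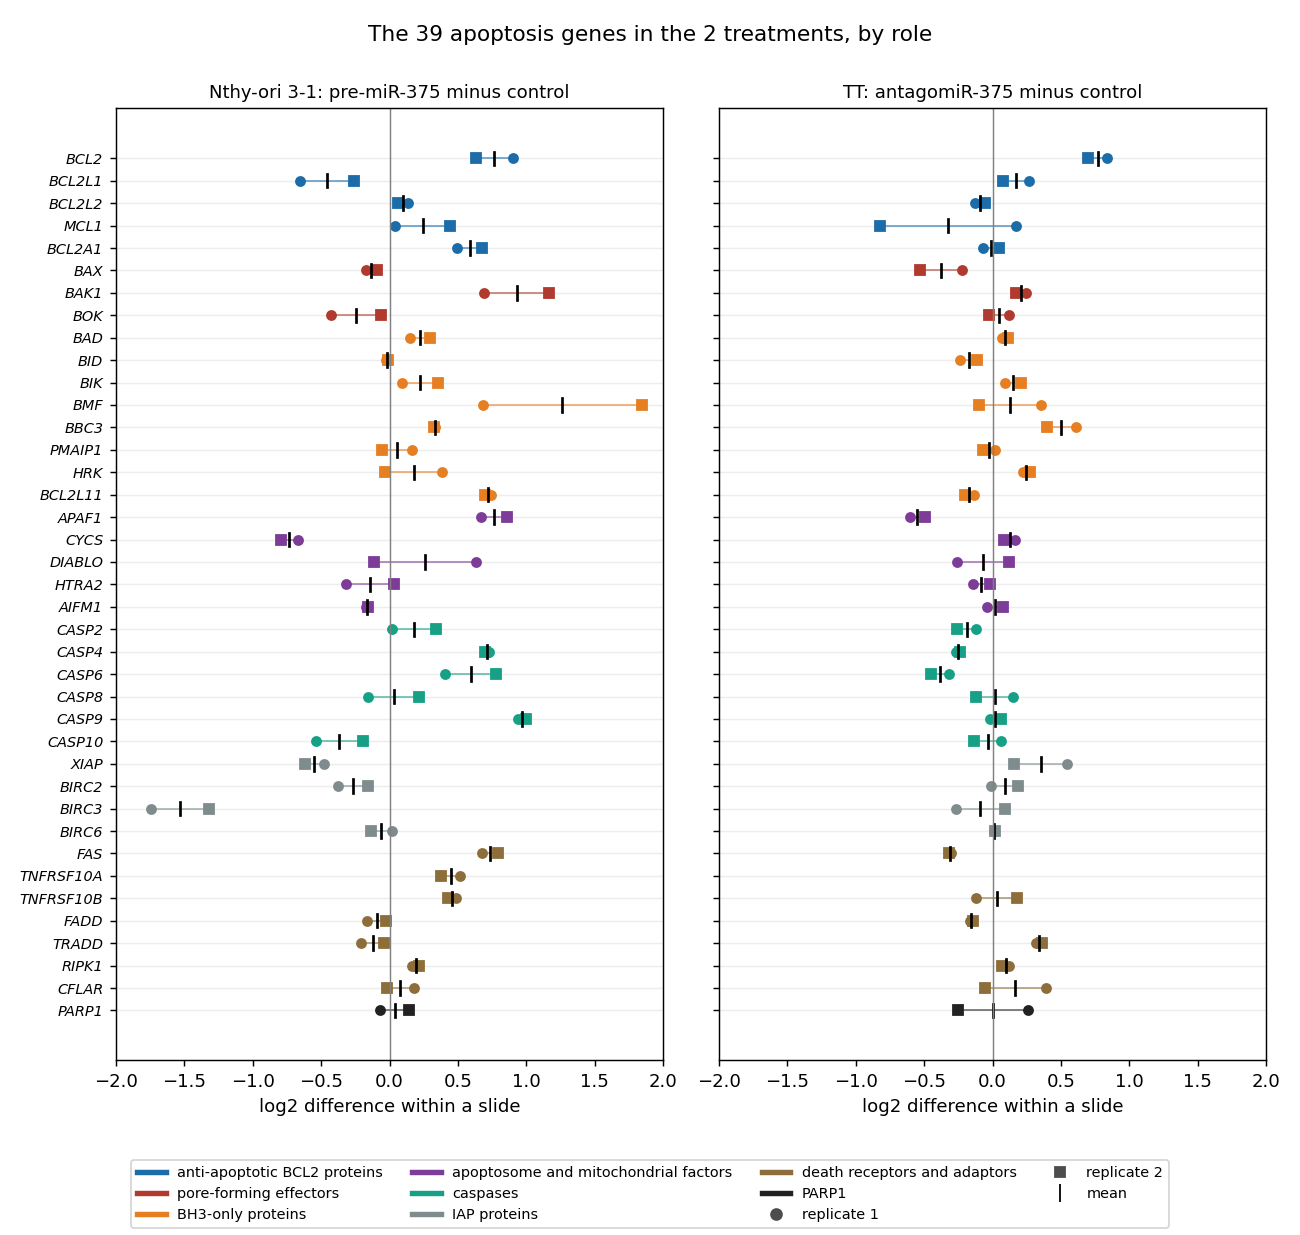
Log2 difference between the treated and the CTL array of the same replicate number (x axis) for each of the 39 apoptosis genes (y axis, coloured by role), with circles for replicate 1, squares for replicate 2 and a black tick for their mean; left, premiR-375 in Nthy-ori 3-1, right, AntagomiR-375 in TT. On the left BMF, CASP9 and BAK1 lie farthest to the right and BIRC3 farthest to the left at -1.53, while on the right BCL2 at 0.77 lies farthest from 0; TNFRSF10A was not tested in TT.

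The count of calls depended on the signal, the filter and the arrays that entered the fit. In 5 of the 13 other settings run, between 9 and 13 of the 39 genes passed: 13 with a minimum average log2 intensity of 6 (19.2% of all genes), 13 with the background corrected by normexp (16.2%), 11 with the deposited log2 values (12.9%), 9 with the median spot signal (11.7%) and 9 with both lines in 1 fit (8.72%). In the other 8 settings 0 passed. BAK1, BCL2L11, CASP4, CASP9 and FAS, higher, and BIRC3 and CYCS, lower, were the 7 that passed in each of those 5 settings. The settings reuse the same arrays, and the share of all genes that passed in each of the 5 was not counted. APAF1, BCL2 and BCL2A1 passed in 4 of them.

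Among the BH3-only genes, 7 of 8 were higher and 1 was lower, with a median of 0.22. BMF, whose product is tied to the cytoskeleton until stress frees it, was at 8.06 and 7.09 with CTL and at 8.75 and 8.94 with premiR-375. The groups did not overlap, but the gap between the CTL arrays was larger than the difference within replicate 1. Its difference was 1.26 on the log2 scale (SE 0.34, limma adjusted p = 0.153), being 0.68 in replicate 1 and 1.84 in replicate 2. A second BMF probe gave 0.91, made of unequal pairs, 0.23 and 1.59. It was not well above background on the CTL array of replicate 2 (3.44). BCL2L11, the gene of BIM, was at 9.56 and 9.07 with CTL and 10.30 and 9.77 with premiR-375, a difference of 0.72 (SE 0.11, adjusted p = 0.093) that was close to equal in both pairs, 0.74 and 0.70. Its other 2 probes gave 0.28 and 0.27. BBC3 (PUMA) and BAD lay 0.33 and 0.22 higher, and PMAIP1 (NOXA) and BID lay within 0.06 of 0.

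The promoters of BCL2L11 and BIRC3 are shown because each held 1 of the 2 motifs searched first, which were chosen with the values of both genes in view. Of the 39 genes, 32 had a promoter in the RefSeq table (GRCh38.p14). Both strands were searched for GTAAACA, a form bound by FOXO factors, and a form bound by NF-kB, GGG and TTTCC with any 2 letters between them. The first stood in 3.42% of 35116 promoters and in that of BCL2L11 alone of the 32, on the strand of the gene, starting 223 bases before its start. The second stood in 1.91% and in that of BIRC3 alone, on the opposite strand, starting 199 bases before its start. This depends on the form chosen. The shorter GGNNTTTCC, tried after these matches were seen, stood in 6.26% of promoters and in 5 of the 32, those of BID, BIRC3, CYCS, PARP1 and XIAP. The motif is in capitals within chr2:111120664-111120742 and chr11:102317240-102317339, both on the plus strand:
BCL2L11: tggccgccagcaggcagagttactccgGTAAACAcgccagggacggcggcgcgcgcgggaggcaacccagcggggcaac
BIRC3: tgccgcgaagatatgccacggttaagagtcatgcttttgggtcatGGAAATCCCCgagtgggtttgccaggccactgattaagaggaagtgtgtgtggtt

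Of the 3 pore-forming effectors, BAK1 was higher and BAX and BOK were lower. BAK1 was at 10.89 and 10.96 with CTL and at 11.58 and 12.13 with premiR-375, with no overlap and a difference of 0.93 (SE 0.18, adjusted p = 0.106), a fold of 1.91. BAX lay at -0.14 and BOK at -0.24. The 5 anti-apoptotic genes held 4 higher and 1 lower. BCL2 was at 6.26 and 6.51 with CTL and at 7.17 and 7.14 with premiR-375, so that the groups did not overlap, and the difference was 0.77 (SE 0.14, adjusted p = 0.102). A second BCL2 probe, which lies in another part of the gene (chr18:60985401-60985460 on hg19, against chr18:60790723-60790782), gave 0.54. With the median signal and normexp the BCL2 difference was 0.49 and 0.46. BCL2A1, an NF-kB-responsive relative of BCL2, lay 0.59 higher (adjusted p = 0.12). That probe was at 10.90 to 11.88 over the 8 arrays. A second BCL2A1 probe, listed for the same transcript, was not well above background on any of them (1.87 to 2.04). The 2 probes thus differ on whether the gene was seen at all. BCL2L1, which encodes BCL-XL, lay at -0.45, with CTL arrays at 8.56 and 9.53 and treated arrays at 7.91 and 9.28 that overlapped. MCL1 and BCL2L2 lay at 0.24 and 0.10.

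CASP9, the initiator caspase of the apoptosome, had the smallest adjusted p of the genes that lay higher. It was at 8.35 and 8.24 with CTL and at 9.29 and 9.24 with premiR-375, and the difference was 0.97 (SE 0.12, adjusted p = 0.0827), a fold of 1.96, with pairs of 0.94 and 1.0. APAF1, its scaffold, was at 5.94 and 5.67 with CTL and at 6.61 and 6.53 with premiR-375 (0.76, SE 0.13, adjusted p = 0.0959), and normexp gave 0.40. CYCS, the third component, lay the other way. It was at 12.60 and 13.40 with CTL and at 11.93 and 12.60 with premiR-375, a difference of -0.73 (SE 0.12, adjusted p = 0.0948) with groups that met at 12.60 without overlap. The second CYCS probe gave -0.72 and the third 0.06, and as CYCS has processed copies in the genome, the probes may not see it alone. CASP4, an inflammatory caspase, lay 0.71 higher (SE 0.11, adjusted p = 0.0939) and CASP6, an executioner, 0.59 higher. CASP2 and CASP8 lay at 0.18 and 0.03, and CASP10 at -0.37. A second CASP10 probe differed in sign, at 0.13 with pairs of -0.07 and 0.34. DIABLO, HTRA2 and AIFM1, further mitochondrial proteins, lay at 0.26, -0.14 and -0.16.

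The 4 IAP genes were all lower, 3 of them in both pairs. BIRC3, which encodes cIAP2 and is itself induced by NF-kB, had the largest difference of the 39 genes on the processed signal. It was at 7.45 and 8.03 with CTL and at 5.70 and 6.71 with premiR-375, so that both treated arrays lay under both controls, and the difference was -1.53 (SE 0.17, adjusted p = 0.0809), a fold of 2.89. With the deposited values, the median signal and normexp it was -1.08, -1.05 and -0.96, and BMF, at 1.11, 1.08 and 1.04, lay farther from 0, as it also did without replicate 1 (1.84 against -1.32). The BIRC3 probe lies at chr11:102208356-102208415 on hg19. XIAP, the direct inhibitor of executioner caspases and caspase-9, was at 10.65 and 10.64 with CTL and at 10.17 and 10.03 with premiR-375 (-0.55, SE 0.12, adjusted p = 0.122), without overlap, and a second probe gave -0.41. BIRC2 (cIAP1) lay at -0.27 and BIRC6 at -0.06.

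The 3 death receptor genes all lay higher. FAS was at 6.31 and 7.11 with CTL and at 6.99 and 7.91 with premiR-375. These ranges overlapped, but each treated array was above its own pair, by 0.67 and 0.79, and the difference was 0.73 (SE 0.12, adjusted p = 0.0944). The other 2 FAS probes gave 1.02 and 0.84. The probe with 0.84 was not well above background on the CTL array of replicate 1 (4.13). TNFRSF10A and TNFRSF10B, the TRAIL receptors, lay 0.45 and 0.46 higher without overlap (adjusted p = 0.152 and 0.141). The adaptors FADD, TRADD and RIPK1 lay between -0.12 and 0.19.

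PARP1 was among the genes closest to 0. It was at 13.62 and 13.23 with CTL and at 13.55 and 13.37 with premiR-375, and the treated values lay between the control values. The difference was 0.04 (SE 0.13, adjusted p = 0.874), and a second probe gave -0.10.

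The second comparison asks what blocking miR-375 in the carcinoma line did. None of the 38 genes tested passed an adjusted p of 0.05 (0% of 22737 genes), the smallest adjusted p of any probe was 0.341, and 4 of the 38 had an unadjusted p under 0.05, beside 13.5% of all genes. None passed in any of the 13 other settings either, of which normexp alone called genes (0.435% of all). AntagomiR-375 and CTL arrays did not overlap for 17 of the 38, beside 44.5% of all genes, and both pairs had 1 sign for 23, beside 64.1%. By the size rule 1 gene, BCL2, was higher (2.04% of all genes) and 0 were lower (1.05%). The differences ran from -0.55 to 0.77 with a median of 0.01, against -0.01 over all genes. TNFRSF10A was not well above background on any TT array (2.10 to 2.72) and was not tested.

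BCL2 was at 10.04 and 10.11 with CTL and at 10.87 and 10.81 with AntagomiR-375. The groups did not overlap and the pairs were alike, 0.84 and 0.70, with a difference of 0.77 (SE 0.11, adjusted p = 0.341), a fold of 1.70. The second BCL2 probe gave 0.64. BBC3, a BH3-only gene induced by p53, came next at 8.68 and 8.76 with CTL and 9.29 and 9.15 with AntagomiR-375 (0.50, SE 0.12, adjusted p = 0.349), also without overlap. XIAP was at 10.68 and 10.71 with CTL and at 11.23 and 10.87 with AntagomiR-375. Its pairs were unequal, 0.55 and 0.15, and the difference was 0.35 (SE 0.16, adjusted p = 0.431). TRADD, the adaptor of the TNF receptor, lay 0.34 higher.

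APAF1 had the largest difference downward on the processed signal. It was at 5.15 and 4.32 with CTL and at 4.54 and 3.82 with AntagomiR-375, and although these ranges overlapped, both pairs were lower, at -0.61 and -0.49 (mean -0.55, SE 0.11, adjusted p = 0.341). With the deposited values, the median signal and normexp it was -0.22, -0.21 and -0.14, closer to 0 than CASP6 at -0.29, -0.27 and -0.34. CASP6 was at 9.08 and 9.30 with CTL and at 8.76 and 8.85 with AntagomiR-375 (-0.39, SE 0.11, adjusted p = 0.36), without overlap. BAX was at 10.46 and 10.37 with CTL and at 10.23 and 9.84 with AntagomiR-375 (-0.38, SE 0.14, adjusted p = 0.392), also without overlap, while its second probe gave 0.07. FAS lay at -0.31 and CASP4 at -0.25. FAS was dim in TT, at 4.10 to 4.50, and its difference ran from -0.40 to -0.05 over the other settings. The other FAS probes were too dim to be tested there. CASP9, BMF and BIRC3, which stood out in Nthy-ori 3-1, lay at 0.02, 0.13 and -0.09, with pairs of opposite sign.

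PARP1 had a mean difference of 0.00 in TT, made of pairs of 0.26 and -0.26. It was at 13.31 and 13.56 with CTL and at 13.56 and 13.30 with AntagomiR-375 (SE 0.18, adjusted p = 0.999). MCL1, a short-lived anti-apoptotic protein's gene, also had opposite pairs, 0.17 and -0.82.

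The 2 treatments share no array and can be set side by side. Of the 38 genes tested in both, 19 had opposite signs, or 50%, beside 53.3% of all 19266 genes. Across all 4 pairs, 7 were higher with the precursor and lower with the inhibitor (18.4%, against 15.2% of all genes), namely APAF1, BCL2L11, BCL2L2, CASP2, CASP4, CASP6 and FAS. The reverse held for BCL2L1, CYCS, TRADD and XIAP, 4 genes or 10.5%, against 12.1%. A further 6 were higher in all 4 pairs (15.8%, against 10.7%), BAD, BAK1, BBC3, BCL2, BIK and RIPK1, and 3 were lower in all 4 (7.89%, against 9.87%), BAX, BID and FADD. The shares were thus near those of all genes. The classes rest on the brightest probe, and other probes left them. With AntagomiR-375 the second BAD probe had pairs of -0.05 and -0.22, and that of BAX 0.07 and 0.07. The second CASP2 probe had -0.22 and 0.06 there, and the other BCL2L11 probes -0.38 and 0.21, and -0.18 and 0.13. The third CYCS probe had 0.07 and 0.05 with premiR-375. BCL2 lay farthest from 0 in a shared direction, at 0.77 in both lines.

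**Figure D2:**
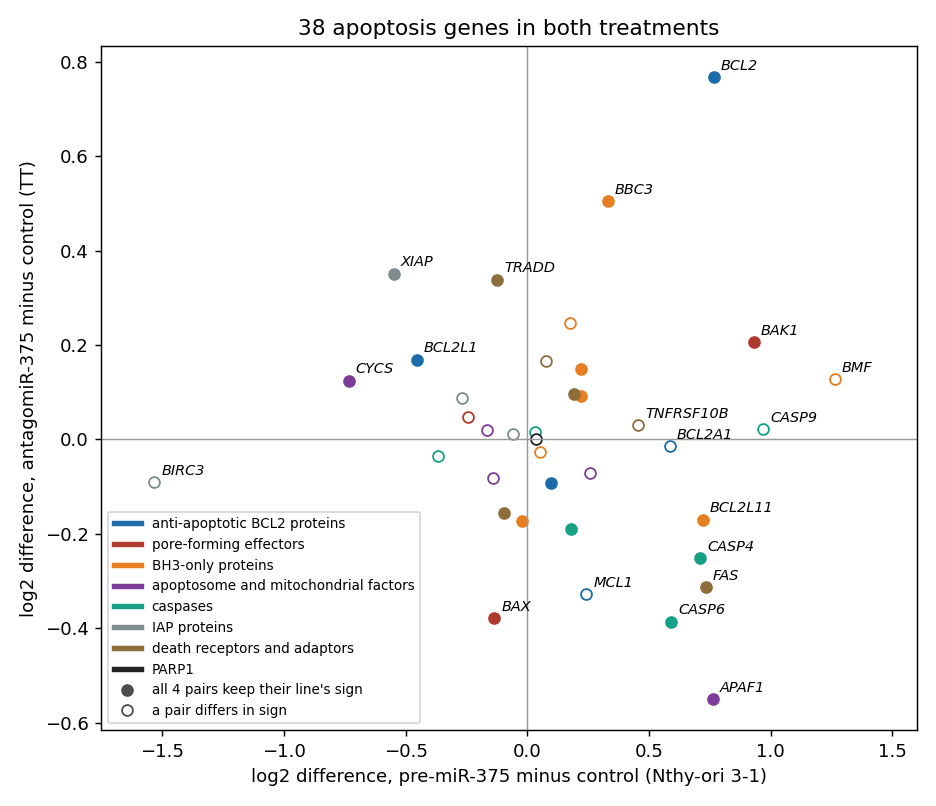
Log2 difference with premiR-375 in Nthy-ori 3-1 (x axis) against that with AntagomiR-375 in TT (y axis) for the 38 genes tested in both, coloured by role, with filled points where both pairs of each line have 1 sign. BCL2 lies at the upper right at 0.77 on both axes, APAF1 at the lower right at 0.76 and -0.55, and XIAP at the upper left at -0.55 and 0.35.

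CFLAR, the gene of the caspase-8 regulator c-FLIP, gave different answers at its 4 probes. The brightest, the one with the seed letters printed above, had differences of 0.08 with premiR-375 and 0.17 with AntagomiR-375, each made of pairs of opposite sign. The probes A_23_P209394, listed for NM_001127184 at chr2:202000731-202000790, and A_24_P120115, listed for NM_003879, the long form, at chr2:202025198-202025257, both on hg19, lie upstream of it and are shown because they read different parts of the RNA:
A_23_P209394: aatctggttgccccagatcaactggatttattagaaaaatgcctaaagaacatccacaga
A_24_P120115: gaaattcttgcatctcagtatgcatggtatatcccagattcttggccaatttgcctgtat
The first lay at -0.12 with premiR-375 and -0.19 with AntagomiR-375. The long-form probe lay at -1.25 with premiR-375 (pairs of -1.43 and -1.07) and at 0.54 with AntagomiR-375 (0.78 and 0.29). On the premiR-375 array of replicate 1 this probe, at 4.60, was not well above background. The last probe, A_21_P0001952 at chr2:202031892-202031951, had the same signs, at -0.80 and 0.92. The 0.92 was made of unequal pairs, 1.66 and 0.18, and the CTL array of replicate 1 in TT was not above background there. Both of these probes are dim, with a mean log2 intensity of 5.25 and 5.60 over the 8 arrays, and both were lower with the precursor and higher with the inhibitor in all 4 pairs. They were not chosen to stand for the gene, and were singled out after their values were seen.

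**Figure D3:**
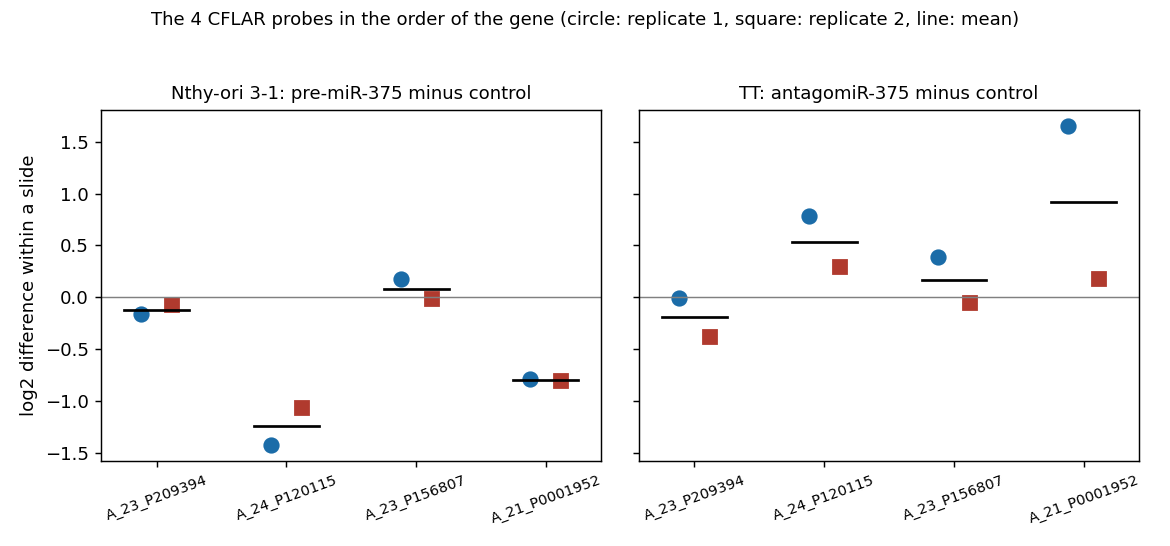
Log2 difference within a slide (y axis) at each of the 4 CFLAR probes (x axis, in the order of the gene) with premiR-375 in Nthy-ori 3-1 (left) and AntagomiR-375 in TT (right), with circles for replicate 1, squares for replicate 2 and a line for the mean. The means of A_24_P120115 and A_21_P0001952 lie below 0 on the left, at -1.25 and -0.80, and above 0 on the right, at 0.54 and 0.92. Those of the other probes lie between -0.19 and 0.17. On the right, single pairs of A_23_P156807 (0.39) and A_23_P209394 (-0.38) lie farther from 0 than the replicate 2 pairs of the first 2 (0.29 and 0.18).

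The third comparison sets the CTL arrays of TT against those of Nthy-ori 3-1 and describes the apoptosis genes of the 2 lines after control transfection. Here line, medium, control reagent, labelled dose, RNA integrity number and slide cannot be told apart. In limma, 23 of the 39 genes passed an adjusted p of 0.05, 7 higher and 16 lower in TT, or 59.0%, beside 47.6% of all 23161 genes (24.4% higher and 23.3% lower). The median difference of the 39 was -0.52 on the log2 scale (-0.0046 over all genes). The CTL arrays did not overlap for 33 of the 39, beside 74.5% of all genes. Over the 14 other settings run, 17 to 28 of the 39 passed.

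**Figure D4:**
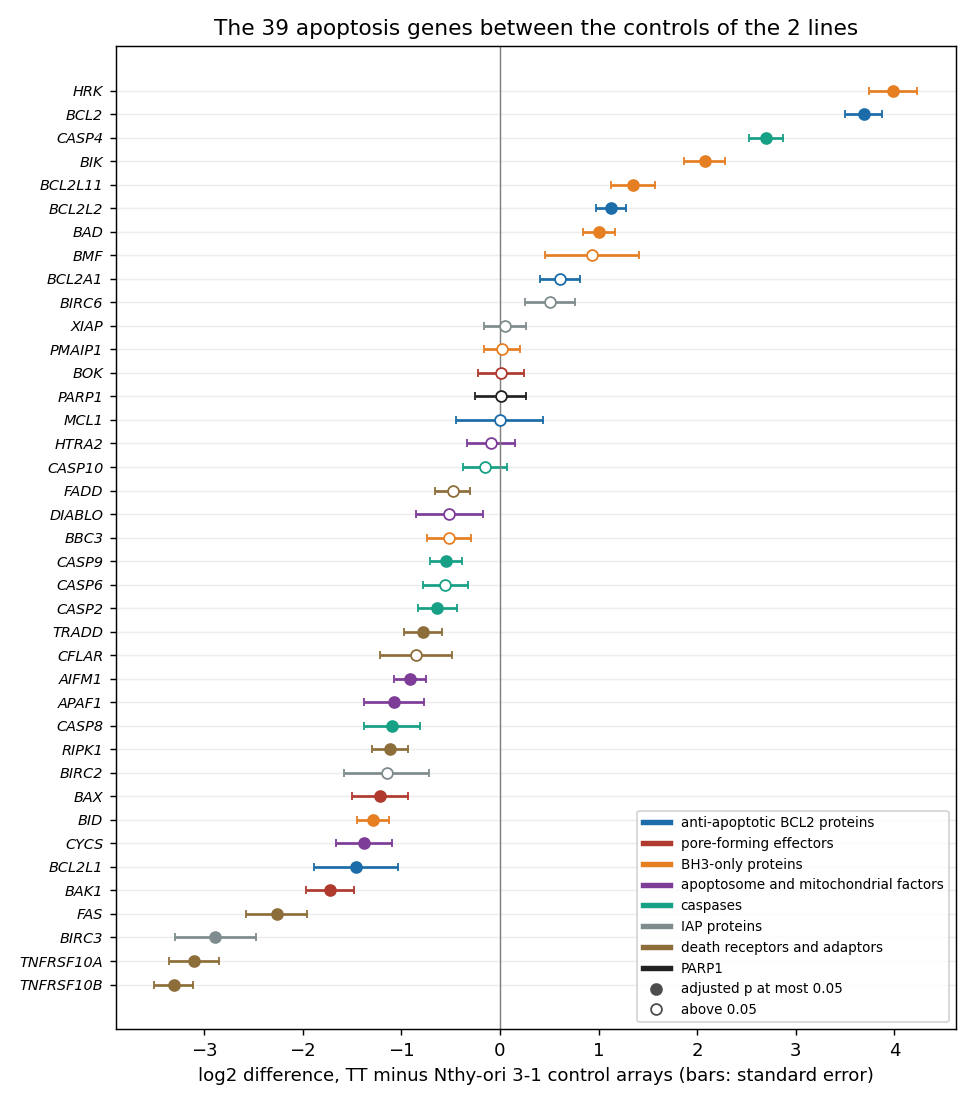
Log2 difference of the CTL arrays, TT minus Nthy-ori 3-1 (x axis, bars are standard errors), for each of the 39 apoptosis genes (y axis, ordered by the difference and coloured by role), filled where the adjusted p was at most 0.05. HRK at 3.99 and BCL2 at 3.69 lie at the top and TNFRSF10B at -3.31 at the bottom. All 7 genes coloured as death receptors and adaptors, among them the caspase-8 regulator CFLAR, lie below 0.

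The BCL2 family held most of the genes higher in TT. BCL2 was at 6.26 and 6.51 in Nthy-ori 3-1 and at 10.04 and 10.11 in TT, a difference of 3.69 (SE 0.19, adjusted p = 2.55e-05), a fold of 12.9, and its second probe gave 2.62. HRK (harakiri), a BH3-only gene, was at 8.48 and 8.27 against 12.38 and 12.34 (3.99, SE 0.25, adjusted p = 5.86e-05), a fold of 15.8. In both cases the lines lay far apart compared with the spread of their arrays. BIK was at 7.83 and 7.37 against 9.75 and 9.60 (2.08, SE 0.21, adjusted p = 0.000442). BCL2L11, BCL2L2 and BAD were also higher, by 1.35, 1.13 and 1.01. The other BCL2L11 probes gave 0.70 and 0.49 (adjusted p = 0.0901 and 0.270), and the second BAD probe gave 0.58 (adjusted p = 0.0932). Lower in TT were BAK1 at -1.72, BCL2L1 at -1.46, BID at -1.29 and BAX at -1.22. The BCL2L1 call was lost in 6 of the 14 other settings, among them each that left out 1 array (adjusted p from 0.0635 to 0.123) and the fit without the replicate block (0.0567). BAX passed in 12 of the 14, and its second probe gave -0.53 (adjusted p = 0.193). The higher genes, each read from its brightest probe, thus included the anti-apoptotic BCL2 and BCL2L2 and 4 BH3-only genes.

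CASP4 was the caspase with the largest difference, at 9.58 and 9.84 in Nthy-ori 3-1 and 12.36 and 12.46 in TT (2.70, SE 0.17, adjusted p = 6.43e-05), a fold of 6.50. The initiators CASP8, CASP2 and CASP9 were lower in TT, at -1.09, -0.64 and -0.55. CYCS, APAF1 and AIFM1 were lower, at -1.38, -1.07 and -0.91. CASP8 passed in 11, CASP2 and CASP9 in 9 of the 14 other settings and APAF1 in 8 of 13. A second CASP2 probe gave -0.15, and with the median signal and normexp the differences were -0.71 and -0.62 for CASP8 and -0.47 and -0.40 for APAF1. BIRC3 was at 7.45 and 8.03 against 5.28 and 4.43 (-2.88, SE 0.41, adjusted p = 0.00194), with no overlap, and BIRC2 lay at -1.15 (adjusted p = 0.0721). XIAP lay at 0.05, although its second probe gave -1.15.

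The death receptors, their adaptors and CFLAR, which holds caspase-8 in check, were grouped together. All 7 of these genes lay lower in TT and 5 of them passed. CFLAR lay at -0.85 (adjusted p = 0.106) and did not pass. TNFRSF10B was at 11.18 and 11.42 in Nthy-ori 3-1 and at 8.13 and 7.85 in TT (-3.31, SE 0.20, adjusted p = 5.09e-05), a fold of 9.90. TNFRSF10A was at 5.49 and 5.61 against 2.17 and 2.72, and as it was not well above background on either TT array, it was at least 4.45-fold lower there on the processed signal (adjusted p = 0.000185). This bound sets the mean of the bright group against the dimmest signal that counted as well above background on each TT array. TNFRSF10A entered the test through its Nthy-ori 3-1 arrays alone. Its p thus lends no support to the count of 5, nor to the 16 lower and 23 passing of all 39. The other signals gave TNFRSF10A differences smaller than the bound. FAS was at 6.31 and 7.11 against 4.40 and 4.50 (-2.26, SE 0.31, adjusted p = 0.00171). The 3 receptors thus lay lower on each TT array than on each Nthy-ori 3-1 array. The size of these differences varied with the signal used. With the deposited values, which also differ in normalisation, the median signal and normexp they were -1.36, -1.08 and -0.96 for FAS, -1.22, -0.93 and -0.77 for TNFRSF10A, and -2.03, -1.71 and -1.52 for BIRC3. RIPK1 and TRADD were lower, at -1.11 and -0.78. Of the 23 genes that passed, 14 passed in all 14 other settings, and FAS and TNFRSF10A passed in the 13 in which they were tested. The other 7 were BAX, BCL2L1, CASP2, CASP8, CASP9, APAF1 and TRADD, and of these TRADD passed in 10 of 14. The share of all genes that passed in every setting was not counted.

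**Figure D5:**
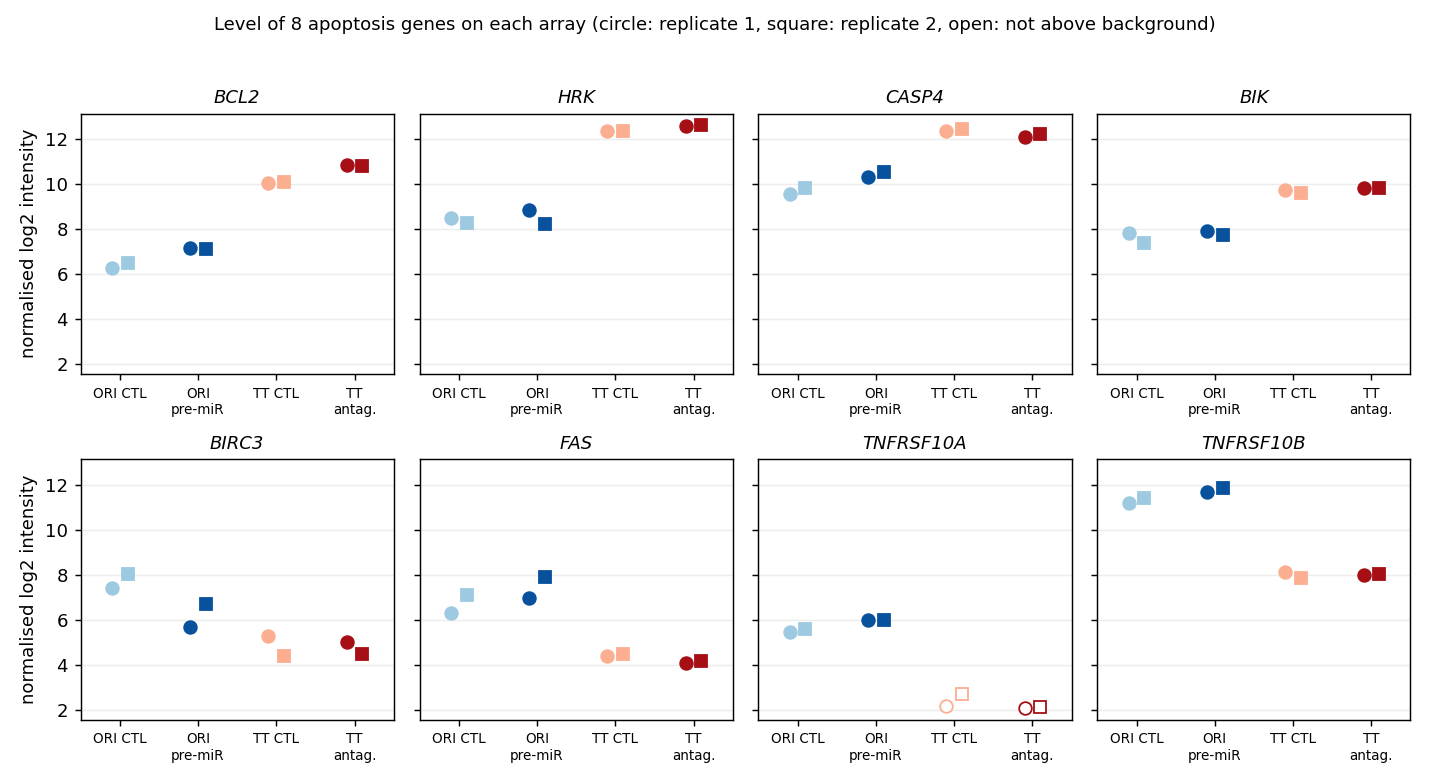
Normalised log2 intensity (y axis) on each of the 8 arrays for 8 apoptosis genes, by group (x axis; ORI is Nthy-ori 3-1), with circles for replicate 1, squares for replicate 2 and open symbols where the probe was not well above background. BCL2, HRK, CASP4 and BIK lie higher on all TT arrays and BIRC3, FAS, TNFRSF10A and TNFRSF10B lower, and the step between the lines is larger than the step between treated and CTL arrays in each panel.

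Close to 0 between the lines were PARP1, at 13.62 and 13.23 against 13.31 and 13.56 (0.01, SE 0.26, adjusted p = 0.985), and MCL1, PMAIP1 and BOK, each within 0.03 of 0, with overlapping arrays. A p above the threshold does not show that their levels were equal.

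Other genes of cell death and of neighbouring responses were read from lists. With premiR-375 none of the 39 further apoptosis genes tested, the 9 calpain genes, the 21 p53 target genes or the 20 interferon response genes passed, and 11, 2, 12 and 6 of them had an unadjusted p under 0.05, beside 26.8% of all genes. Their median differences were 0.11, 0.12, 0.45 and 0.38, against 0.03 over all genes. Among the p53 target genes, SESN1 lay at 1.53, BTG2 at 1.36 and CDKN1A, the p21 cell cycle inhibitor, at 1.02, with 16 of 21 higher. The difference farthest from 0 in that list ran the other way, TP53AIP1 at -2.40 (SE 1.37, adjusted p = 0.351). Among the further apoptosis genes, TNFRSF11B (osteoprotegerin, a decoy receptor) lay at -1.23, BIRC5 (survivin) at -1.0 and CASP5 at 0.73. CAST, which encodes the calpain inhibitor calpastatin, lay at -0.84. With AntagomiR-375 again none passed, and the medians were 0.01, 0.17, -0.03 and 0.09, with TNFRSF11B at 1.13 and CAST at 0.49, the reverse of their direction in Nthy-ori 3-1.

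Between the lines 22 of 43 further apoptosis genes passed, 8 higher and 14 lower in TT, as did 7 of 12 calpain genes, 16 of 21 p53 target genes and 13 of 21 interferon response genes, beside the 47.6% of all genes. TNFRSF10D, a TRAIL decoy receptor, was at 9.86 and 10.20 in Nthy-ori 3-1 and not well above background in TT, at 1.91 and 1.92. It entered the test through its Nthy-ori 3-1 arrays alone, so that its p lends the count of 14 lower no support. CASP5, next to CASP4 in the genome, was higher in TT by 2.66.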

How the data were processed

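For each of the 8 arrays the authors deposited a scanner file (Feature Extraction 10.10.1.1), whose processed intensity of each spot is background subtracted and not normalised between arrays, and 1 table of log2 values of all arrays. That table followed the log2 median spot signal before normalisation (Pearson r of 0.998 on the array where it was lowest). Its sorted values differed by at most 0.038 from those of the first array of the same line. Its column medians were 6.23 to 6.49. Probe coordinates in the files are on hg19. The number of arrays limits the precision. The genes and lists were chosen with earlier results of these data known.

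The processed intensity was converted to log2, spots flagged as outliers (341 to 428 per array) were left out, repeated spots were averaged per probe, and quantile normalisation was run over the 8 arrays (limma 3.58.1, R 4.3.3). Probes well above background on at least 2 of the 4 arrays of a comparison were tested: 27719 for premiR-375, 30299 for AntagomiR-375 and 31065 between the lines. Each treatment was fitted alone in its line with the replicate number as a block, because same-numbered arrays share a slide and deviated together (r = 0.785 in Nthy-ori 3-1 and 0.330 in TT over probes). Between the lines all 8 arrays entered 1 fit with the slide as a random block (duplicateCorrelation, 0.658). Fold changes were tested with lmFit and eBayes, and p-values were adjusted by Benjamini-Hochberg over all probes tested. The prior degrees of freedom were 2.20, 1.94 and 2.01. With 2 arrays per group an exact permutation test cannot go below 0.333.

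A gene was read from its brightest tested probe. Values on every array were given for PARP1, for the 3 genes highest and the 3 lowest in each treatment with pairs of 1 sign, for the 8 largest of those that passed between the lines, and for further genes chosen after their values were seen. The markers, the other apoptosis genes, the calpains, the p53 targets and the interferon response genes were read by counts and medians. The steps were tested on simulated data. Alternatives changed the filter, the background correction, the signal, the normalisation, the outlier spots, the block, the choice of probe and the replicates. A left-out replicate leaves 1 array per arm, which was assumed to vary like the other arrays. Some items are not reported here.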

Additional observations from a re-analysis of the deposited data

How the results depend on the processing

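Of the genes named by rule between the lines, each kept its call and direction in every setting that tested it, apart from PARP1, which was not called. With premiR-375, 13, 13, 11, 9 and 9 of the 39 apoptosis genes passed with a minimum average of 6, normexp, the deposited values, the median signal and both lines in 1 fit, as did 3064, 3366, 2676, 2424 and 1809 of all genes, where the main analysis had 0, and the cause was not tested. Those higher by the size rule numbered 5 with the median signal or normexp, and those lower numbered 1 with the average of all probes. The p53 target median was 0.30, 0.29 and 0.29 with the deposited values, the median signal and normexp, and 0.36 to 0.46 without 1 replicate. With AntagomiR-375, 99 genes passed with normexp, none of them among the 39. The median of the other apoptosis genes was -0.025, -0.0033 and -0.016 with the 75th percentile, the average of all probes and a minimum average of 6. Without 1 replicate it was 0.011 to 0.027, that of the calpains 0.19 to 0.31, and those of the 39 at the size rule 1 to 2 higher and 0 to 1 lower. The interferon median was 0.22 without a filter.

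Between the lines, a minimum average of 6 left 3 calpain genes passing and gave medians of -0.51 for the calpains, -0.97 for the interferon genes and 1.21 for the p53 targets. The deposited values gave -0.21 for the calpains, -0.84 for the interferon genes, -0.31 for the other apoptosis genes and 0.36 for the p53 targets. The interferon median was -0.52 with the median signal and -0.55 with normexp, and that of the other apoptosis genes -0.11 with the average of all probes. Without 1 replicate the calpain median was 0.078 to 0.24 and the p53 target median 0.69 to 0.85.

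PARP1 changed sign around 0. With premiR-375 it was -0.030 with the 75th percentile and -0.029 with the average of all probes. With AntagomiR-375 it was -0.057, -0.022, -0.0031, -0.049 and -0.00093 with the 75th percentile, the deposited values, the median signal, normexp and quantiles within each line. Between the lines it was -0.019, -0.12, -0.35 and -0.015 with the 75th percentile, the average of all probes, the deposited values and the median signal. Without 1 replicate it ran from -0.066 to 0.14, from -0.26 to 0.26 and from -0.22 to 0.23 in the 3 comparisons.

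Without the replicate block 0 of the 39 genes and 0 of all genes passed in either treatment, and 2408 and 3301 probes had an unadjusted p under 0.05, against 7413 and 4146 with the block. Between the lines 22 of the 39 and 11276 of all genes passed without it. Signal over background limited TNFRSF10A, which was not tested in TT.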
